A study of Mus musculus with 5 samples.

Results

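Insulin and insulin-like growth factors bind receptor tyrosine kinases that switch on phosphatidylinositol-3-kinase (PI3K), Akt and the kinase mTOR. The genes described here are 9 of that pathway, namely the receptors Insr and Igf1r, the PI3K subunits Pik3ca, Pik3cd and Pik3r1, the kinases Akt1 and Akt2, and Mtor with its partner Rptor. They were taken by gene symbol from the table of read counts, which holds 54113 named entries, and all 9 were found and passed the filter on low counts. The sequenced RNA is labelled as that of CRC tumours of C57BL/6 mice inoculated with MC-38, a single mouse colon adenocarcinoma cell line. Of the 5 tumours, 3 came from mice kept at 30 °C, the thermoneutral control, and 2 from mice kept at 4 °C, in each case for 2 weeks. The labels give no age, sex, implantation site or batch for these mice. The comparison addresses whether the transcripts of this pathway differed in tumours of cold-exposed mice.

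As background, ligand-bound receptors phosphorylate adaptor proteins, which recruit PI3K to the membrane. PI3K makes a phosphorylated lipid that draws Akt to the membrane, and Akt relieves the block that the TSC complex places on mTOR complex 1, so that protein synthesis and growth proceed. Tumours often raise the activity of this pathway, and in leukocytes the delta catalytic subunit (Pik3cd) carries much of the signal from antigen and cytokine receptors. Activity in this pathway is carried by phosphorylation, which read counts do not measure, so all values below are transcript levels.

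Between 16191708 and 20320525 counts fell on named genes in each library. Markers of colon carcinoma epithelium were scarce, with a summed level of 19.4 to 132 CPM (counts relative to the library total, on the usual common scale) over 10 genes, 6 of which had more than 3 counts in every library. None of these 10 genes was at 0 in all libraries. B cell markers summed to 1442 to 4350 CPM, T cell markers to 250 to 693 and macrophage markers to 1462 to 3172, with all 10 genes of each list above 3 counts in every library. In every library each of these leukocyte lists summed to more than the epithelial list, erythroblast markers summed to 16040 to 42320 CPM and 6 markers of splenic stroma to 81.95 to 235 CPM. The labels name only tumour, and whether the sampled tissue was tumour cannot be told from these counts. The libraries are called tumours below as the labels call them, and every level is that of the cell mixture. Fewer cells of a type and less RNA per cell cannot be told apart in bulk tumours. Pancreatic acinar genes took up 0.27% of the counts of 4 °C replicate 2 and 27.3% of those of 30 °C replicate 2. In the other libraries the share was at most 0.00837%. The epithelial list also summed highest in 30 °C replicate 2 (132 CPM) and 4 °C replicate 2 (92.9 CPM), against 19.4 to 61.7 CPM elsewhere. The part of pancreatic cells in those sums was not tested. A share of 27.3% lowers every other gene of 30 °C replicate 2 in plain CPM. For this reason levels are given as TMM-scaled CPM, in which TMM factors ranged from 0.738 in that library to 1.13. The scaling left the median log2 fold change of all genes at 0.0064.

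With the quasi-likelihood test of edgeR, 0 of the 9 genes had a Benjamini-Hochberg adjusted p under 0.05 between 4 °C and 30 °C, and the smallest adjusted p was 0.71. The same test called 0 of 16133 genes, which is 0% of all genes tested. At an unadjusted p under 0.05, 1 of the 9 genes differed (Igf1r), against 1090 of all genes, or 6.76% (4.17% lower and 2.58% higher at 4 °C). DESeq2 also called 0 of the 9 genes after adjustment and had 2 at an unadjusted p under 0.05, both lower at 4 °C. Over all genes with a value, DESeq2 called 1.01% after adjustment and had 7.83% at an unadjusted p under 0.05, with 5.35% lower at 4 °C. Of the 9 genes, 6 had a negative and 3 a positive log2 fold change (log2FC, 4 °C over 30 °C), with a median of −0.195 against 0.0064 over all genes. The fitted differences ran from −0.61 to 0.04 on the log2 scale. The sign of Pik3ca turned with RLE scaling and that of Akt2 with upper-quartile scaling and without TMM, each at a log2FC near 0. Groups of tumours did not overlap for 2 of the 9 genes, Insr and Igf1r, both lower at 4 °C. Over the whole table, groups were separate in 23.3% of genes, and in 11.0% with the lower values at 4 °C.

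**Figure D1:**
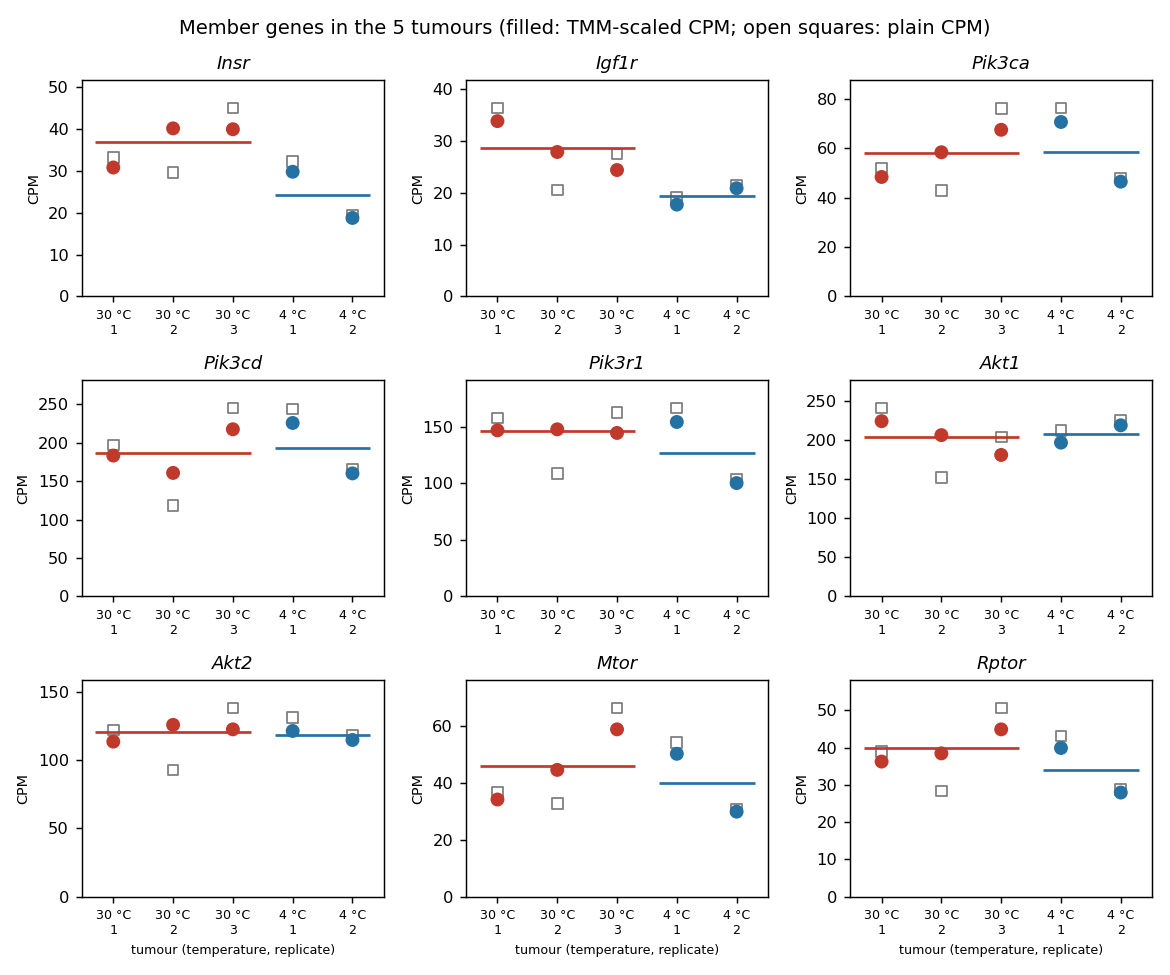
Level of each of the 9 genes in each tumour, with filled points in TMM-scaled CPM (red, 3 tumours at 30 °C; blue, 2 tumours at 4 °C), open squares in plain CPM and lines at the group means of the filled points. Both tumours at 4 °C lie under all tumours at 30 °C for Insr and Igf1r in the filled points, and not in the open squares, where 30 °C replicate 2 is drawn down.

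In TMM-scaled CPM both receptors stood lower in the cold tumours, within the limits of 5 libraries, and neither difference passed the adjusted threshold. Over all genes, groups were separate in 23.3%, and in 11.0% in that direction. Insr, the insulin receptor (chromosome 8 of GRCm38, 3122061 to 3279617, minus strand), had 30.8, 40.2 and 39.95 TMM-scaled CPM at 30 °C and 29.8 and 18.8 at 4 °C. The highest cold tumour lay just under the lowest warm tumour, and 4 °C replicate 2 stood well below the rest. Mean levels were 37.0 ± 5.34 at 30 °C (SD, n = 3) against 24.3 ± 7.81 at 4 °C (SD, n = 2). The log2FC of −0.61 (standard error 0.26) was not past the threshold (edgeR, adjusted p = 0.74), and the 95% interval of the fold ran from 0.424 to 1.02. Without 4 °C replicate 2 the log2FC of Insr was −0.33, and without 4 °C replicate 1 it was −0.98.

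Igf1r, the receptor of insulin-like growth factors (chromosome 7, 67952827 to 68233668, plus strand), had 33.8, 27.8 and 24.4 TMM-scaled CPM at 30 °C and 17.7 and 20.9 at 4 °C. All 3 warm tumours were above both cold tumours. Mean levels were 28.7 ± 4.77 at 30 °C (SD, n = 3) against 19.3 ± 2.22 at 4 °C (SD, n = 2). The log2FC of −0.57 (standard error 0.22) had an unadjusted p under 0.05 and failed the correction over all genes (edgeR, adjusted p = 0.71). The 95% interval of the fold was 0.467 to 0.968. In plain CPM the groups overlapped for both receptors. Igf1r then stood at 36.3, 20.5 and 27.5 CPM at 30 °C and at 19.1 and 21.5 at 4 °C, and without TMM the log2FC was −0.47 for Igf1r and −0.48 for Insr, both with an unadjusted p over 0.05. With 30 °C replicate 2 (the tumour with the most acinar counts) left out, it was −0.61 for Igf1r and −0.55 for Insr, again with an unadjusted p over 0.05. Without 30 °C replicate 1 it was −0.44 for Igf1r and −0.72 for Insr. The unadjusted p was then over 0.05 for Igf1r and under 0.05 for Insr. T cell markers summed to 289 to 479 TMM-scaled CPM at 30 °C and to 642 and 652 at 4 °C. Neutrophil markers summed to 12260, 8348 and 2852 at 30 °C and to 2434 and 3910 at 4 °C, with overlapping groups. The part of these cells in the receptor levels was not tested.

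The balance of the receptors varied as much within a temperature as between temperatures. In counts, the ratio of Insr to Igf1r was 0.912, 1.44 and 1.64 at 30 °C and 1.68 and 0.899 at 4 °C, from below to above 1 at both temperatures. At 30 °C the mean log2 ratio was 0.37 ± 0.45 (SD, n = 3), against 0.30 ± 0.64 (SD, n = 2) in the cold (two-sided exact permutation test, p = 1, adjusted p = 1 over 6 ratios). With 3 tumours against 2 there are 10 splits, and the smallest p this test can give is 0.2. Igf2r, a scavenger receptor of Igf2, had a log2FC of −0.32 (standard error 0.25). Insrr, the insulin receptor-related gene, was at most 0.70 TMM-scaled CPM in any tumour.

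The PI3K genes did not separate the temperatures. Pik3cd, the delta catalytic subunit (chromosome 4, 149649168 to 149702571), had 183, 161 and 218 TMM-scaled CPM at 30 °C and 226 and 160.1 at 4 °C. The lowest and the highest of the 5 values both came from cold tumours. Its log2FC was 0.04 (standard error 0.22, edgeR adjusted p = 0.98), with a 95% interval of the fold from 0.709 to 1.498. Pik3ca, the ubiquitous alpha catalytic subunit (chromosome 3, 32397671 to 32468486), had 48.3, 58.3 and 67.4 at 30 °C and 70.6 and 46.4 at 4 °C. Here too the cold tumours held both extremes, the log2FC was 0.01 (standard error 0.25), and the interval of the fold ran from 0.667 to 1.53.

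Pik3r1, which encodes the regulatory subunit p85-alpha and shorter forms (chromosome 13, 101680563 to 101768217), was almost level in the warm tumours, at 147, 148 and 145 TMM-scaled CPM. The cold tumours stood on either side of these, at 154 and 100.2. The log2FC was −0.20 (standard error 0.22, edgeR adjusted p = 0.88), and it was 0.06 without 4 °C replicate 2. Within a library, Pik3cd had between 2.75 and 3.79 counts for each count of Pik3ca, and at 30 °C the mean log2 ratio was 1.69 ± 0.23 (SD, n = 3), against 1.73 ± 0.077 (SD, n = 2) in the cold (two-sided exact permutation test, p = 1, adjusted p = 1). The ratio of Pik3r1 to Pik3ca was 3.04, 2.53 and 2.14 at 30 °C and 2.19 and 2.16 at 4 °C, a difference of −0.23 in the mean log2 ratio (two-sided exact permutation test, p = 0.6, adjusted p = 1).

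The Akt genes had the narrowest intervals of the 9. Akt1 (chromosome 12, 112653821 to 112674884), the form found in nearly all cells, had 225, 207 and 181 TMM-scaled CPM at 30 °C and 197 and 219 at 4 °C. The cold values fell inside the range of the warm ones, and the log2FC was 0.03 (standard error 0.17). For Akt2 (chromosome 7, 27591552 to 27640826), the form tied to insulin action in muscle, fat and liver, the values were 114, 126 and 123 at 30 °C and 122 and 115 at 4 °C. The log2FC was −0.03 (standard error 0.16). The 95% intervals of the fold were 0.766 to 1.36 for Akt1 and 0.753 to 1.27 for Akt2, so a change as large as a halving or doubling lies outside both. In this fit the same holds for Pik3ca, Pik3cd, Pik3r1, Mtor and Rptor, whereas the intervals of Insr and Igf1r include a halving. For Mtor it holds only just, with a lower end of 0.514. Single tumours moved these values. Without 4 °C replicate 1 the log2FC was −0.62 for Mtor, −0.54 for Pik3r1 and −0.51 for Rptor. Without 4 °C replicate 2 it was 0.12, 0.06 and −0.01. The count of Akt2 was 0.507 to 0.677 of that of Akt1 in the 5 libraries, and the mean log2 ratio differed by −0.062 between the temperatures (two-sided exact permutation test, p = 1, adjusted p = 1).

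Mtor, the kinase of both mTOR complexes (chromosome 4, 148448611 to 148557683), had 34.1, 44.5 and 58.8 TMM-scaled CPM at 30 °C and 50.2 and 29.8 at 4 °C. Values differed more within each temperature than between the means of 45.8 ± 12.4 (SD, n = 3) and 40.01 ± 14.4 (SD, n = 2). The log2FC was −0.19 (standard error 0.32, edgeR adjusted p = 0.93), with the widest interval of the 9 genes, from 0.514 to 1.49 as a fold. Rptor, the substrate-binding partner in mTOR complex 1 (chromosome 11, 119602905 to 119899576), had 36.2, 38.4 and 44.9 at 30 °C and 39.9 and 27.9 at 4 °C. Its log2FC was −0.23 (standard error 0.22, edgeR adjusted p = 0.87), and it was −0.01 without 4 °C replicate 2. An antisense gene, Rptoros, covers 0.624% of the exon bases of Rptor, and no exon of another gene overlaps those of the other 8 genes in the GENCODE M21 annotation.

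Rptor had a count ratio to Mtor of 0.764 to 1.06. At 30 °C their mean log2 ratio was −0.17 ± 0.24 (SD, n = 3), against −0.21 ± 0.17 (SD, n = 2) in the cold (two-sided exact permutation test, p = 1, adjusted p = 1). Against Rictor, the partner in mTOR complex 2, Rptor had a count ratio of 0.968 to 1.49, and the mean log2 ratio was 0.092 higher at 4 °C (two-sided exact permutation test, p = 0.8, adjusted p = 1). Without 30 °C replicate 2, the log2FCs of the 7 genes other than the receptors lay between −0.27 (Rptor) and 0.02 (Akt1), and that of Pik3cd turned to −0.06.

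**Figure D2:**
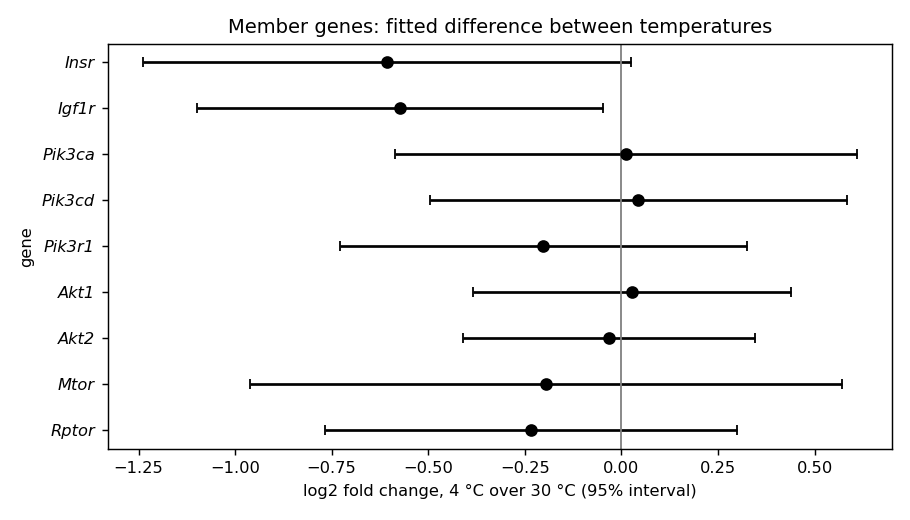
Fitted log2FC of each of the 9 genes, 4 °C over 30 °C, as points with 95% intervals from the edgeR quasi-likelihood fit on 3 and 2 tumours. Upwards, the interval of Igf1r ends at −0.05, those of the other 8 genes include 0, and the Akt genes have the shortest bars.

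Compared per length of their exons, as TMM-scaled RPKM, which is the TMM-scaled CPM divided by the joined exon length in kilobases, the 9 genes spanned from about 1 to over 50. Akt1 was the most abundant, at 44.2 to 54.8 RPKM over the 5 tumours, followed by Pik3cd at 25.6 to 36.1, Akt2 at 15.96 to 17.7 and Pik3r1 at 9.94 to 15.3. These neighbours did not overlap in range. Next came Pik3ca at 5.11 to 7.76, Mtor at 2.95 to 5.81, Rptor at 2.07 to 3.33, Insr at 1.36 to 2.92 and Igf1r at 1.05 to 2.01, and each of these overlapped the next. Pik3r1 and Pik3ca also did not overlap. In 4 of the 5 libraries the order was Akt1, Pik3cd, Akt2, Pik3r1, Pik3ca, Mtor, Rptor, Insr and Igf1r, and in 30 °C replicate 2 Insr stood above Rptor.

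Among the catalytic subunits of PI3K, the delta form led in RPKM. Pik3cg, the gamma form of leukocytes, reached 6.71 to 10.8 RPKM and Pik3cb, the beta form, 3.94 to 6.10, both below the range of Pik3cd. Of the regulatory genes, Pik3r2 reached 11.3 to 20.5, overlapping Pik3r1, and Pik3r5, which pairs with the gamma form, 5.88 to 9.94. Pik3ap1, the adaptor that links the B cell receptor to PI3K, stood at 9.74 to 26.9 RPKM, whereas Irs1, the classical adaptor of the insulin receptor, stood at 0.0988 to 0.483 and Irs2 at 2.85 to 4.87. Exon lengths are those of all annotated exons of a gene joined, so a gene that uses only its shorter transcripts is understated. The summed B cell markers ranged from 1341 to 4027 TMM-scaled CPM, and the part of leukocytes in the level of Pik3cd was not tested.

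**Figure D3:**
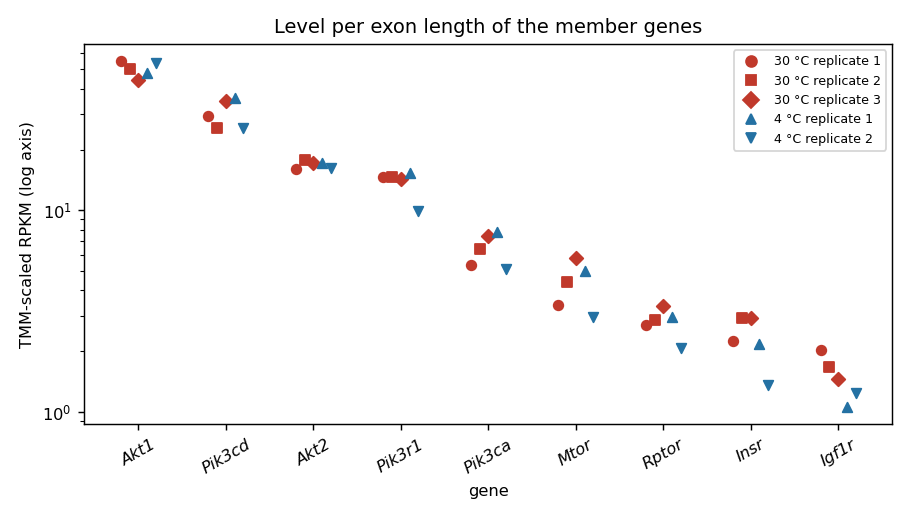
TMM-scaled RPKM of the 9 genes on a log axis, 1 symbol for each of the 5 tumours (red, 30 °C; blue, 4 °C), ordered by mean. Akt1 sits between 44.2 and 54.8 and Igf1r between 1.05 and 2.01, and from Pik3ca downwards each gene overlaps its neighbour.

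Libraries of the same temperature also differed by gene length. The 16023 tested genes with an annotated exon length (99.3%) were grouped by that length. In genes of 10 kb or longer (n = 1341), the median level, relative to the mean over the 5 tumours, was −0.15, 0.060 and 0.25 on the log2 scale in 30 °C replicates 1, 2 and 3 and 0.17 and −0.32 in 4 °C replicates 1 and 2. In genes under 1 kb (n = 1485) these medians were 0.0099, −0.067, −0.16, −0.011 and 0.29. Long genes were thus low and short genes high in 4 °C replicate 2, with the reverse in 30 °C replicate 3. The median log2FC between temperatures went from 0.19 in the shortest group to −0.14 in the longest.

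Of the 9 genes, 5 belong to the longest group: Insr, Igf1r, Mtor, Rptor and Pik3r1. All 5 had negative log2FCs, and 4 of them (not Igf1r) were lowest in 4 °C replicate 2, at −0.71 for Insr, −0.50 for Mtor, −0.41 for Rptor and −0.45 for Pik3r1 relative to their mean. The medians of the whole group did the same, with a log2FC of −0.14 and the lowest level in 4 °C replicate 2 (−0.32). Mtor and Rptor were highest in 30 °C replicate 3, at 0.48 and 0.28. Igf1r went its own way, highest in 30 °C replicate 1 (0.47) and lowest in 4 °C replicate 1 (−0.45). In the longest group 12.2% of genes had groups that did not overlap with lower values at 4 °C. Of the shorter genes, Pik3ca (−0.305) and Pik3cd (−0.227) were also lowest in 4 °C replicate 2, and Akt1 and Akt2 were not. Akt1, the shortest of the 9 at 4.10 kb, was highest in 30 °C replicate 1 and lowest in 30 °C replicate 3. The part of transcript length in the differences of these genes was not tested.

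**Figure D4:**
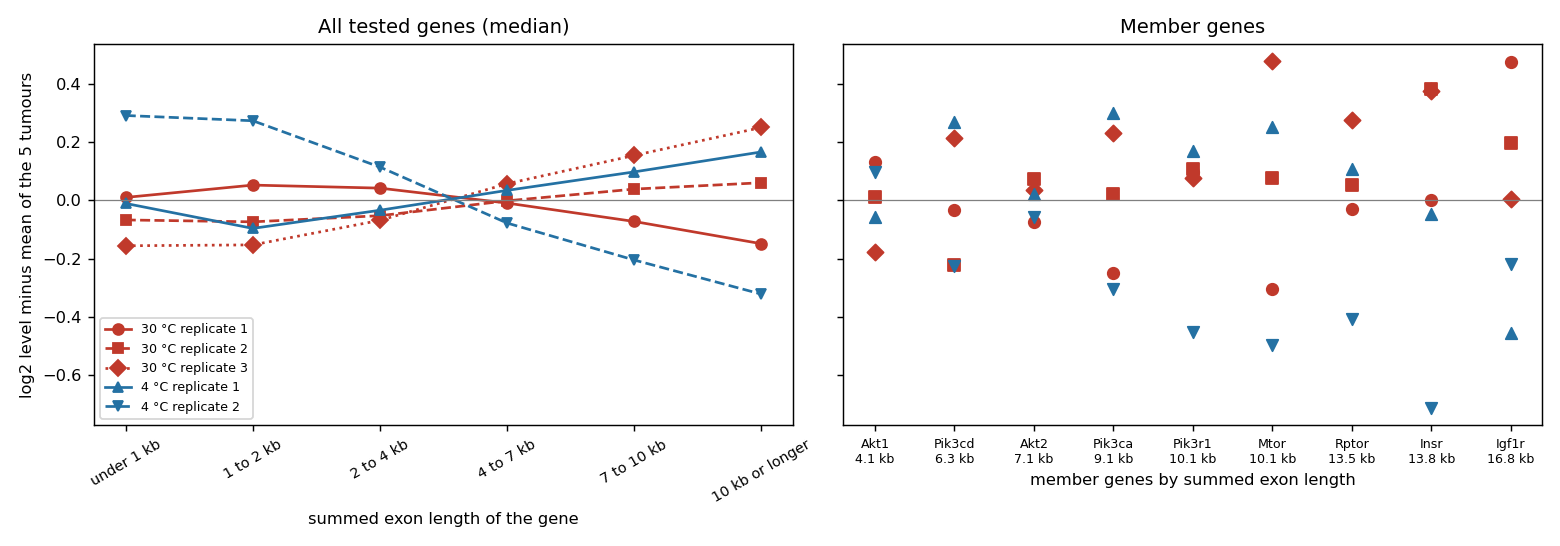
Log2 level minus the mean of the 5 tumours, on the left as medians of all tested genes by summed exon length and on the right for the 9 genes ordered by that length. Lines for 4 °C replicate 2 run from 0.29 to −0.32 and for 30 °C replicate 3 from −0.16 to 0.25. In the right panel 4 °C replicate 2 is lowest for 4 of the 5 genes of 10 kb or longer, and also for the shorter Pik3ca and Pik3cd.

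The wider pathway was read from a list of 107 genes ordered by role, of which 101 passed the filter. None of these had an adjusted p under 0.05 in edgeR, and DESeq2 called 1, Fnip2, against 1.01% of all genes. At an unadjusted p under 0.05 there were 7 genes (6.93% of those tested, against 6.76% of all genes), 3 higher and 4 lower at 4 °C. Of the 92 tested genes that are not among the 9, 44 turned sign and 79 turned sign or moved by over 1.5 times when 1 of the 5 tumours was left out. The median log2FC of the 101 genes was −0.076, with 56 lower and 45 higher, and in 28 of them (27.7%, against 23.3% of all genes) the groups did not overlap.

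Ligands gave little to compare. Igf1, made by stromal cells and macrophages, had 51.4 to 61.5 TMM-scaled CPM at 30 °C and 55.0 and 67.5 at 4 °C, and Igf2 was at most 14.05 in any tumour. Ins1 and Ins2, the insulin genes, had 284 and 567 counts in 30 °C replicate 2 and at most 1 in any other library, and in that library the 7 islet markers, of which they are 2, summed to 66.5 CPM. Of the 7 tested binding proteins, which hold insulin-like growth factors outside cells, 6 had positive log2FCs. In Igfbp3, Igfbp4, Igfbp5 and Igfbp7 both cold tumours exceeded all warm ones, against 12.2% of all genes in that direction. Igfbp4 and Igfbp5 were named after their values were seen, as were Igf2r, Insrr, Pik3r2 and Akt1s1 elsewhere. Igfbp3 had 91.6, 73.9 and 123 TMM-scaled CPM at 30 °C and 163 and 212 at 4 °C, a log2FC of 0.96 (standard error 0.26, edgeR adjusted p = 0.69). Smooth muscle markers summed to 230 to 287 TMM-scaled CPM at 30 °C and 522 in both cold tumours, and splenic stroma markers to 111 to 137 and to 217 in both. Their part in the levels of binding proteins was not tested.

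Between receptor and Akt no gene reached an unadjusted p under 0.05. Of the 9 tested adaptors, 7 had negative log2FCs, with Shc1 at 126, 118 and 124 TMM-scaled CPM at 30 °C and 96.8 and 103 at 4 °C (log2FC −0.30, standard error 0.16, edgeR adjusted p = 0.78). Grb10, an adaptor that dampens the insulin receptor, had a log2FC of −0.40 (standard error 0.24). Pik3cb had a log2FC of −0.37 (standard error 0.19), Pik3cg of −0.16 and Pik3r6 of −0.47. In Pik3cb and Pik3r6 both cold tumours lay under all warm ones, against 11.0% of all genes in that direction. Inpp5d, a lipid phosphatase of blood cells, was at 0.07 (standard error 0.24). Phlpp2, which dephosphorylates Akt, had a log2FC of −0.75 (standard error 0.32, edgeR adjusted p = 0.74), which was −0.45 without 4 °C replicate 2 and −1.15 without 4 °C replicate 1. Pik3ip1, an inhibitor of PI3K at the membrane, was at 0.43 (standard error 0.33). Sgk3, a kinase related to Akt, had 57.6, 69.4 and 60.9 TMM-scaled CPM at 30 °C and 51.9 and 44.9 at 4 °C (log2FC −0.37, standard error 0.18, edgeR adjusted p = 0.76). Pdpk1, the kinase that activates Akt, was at −0.40 (standard error 0.28), with 43.3 TMM-scaled CPM in 4 °C replicate 2 against 62.0 to 85.8 in the other 4 tumours. Its log2FC was −0.08 without that tumour and −0.84 without 4 °C replicate 1.

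Around mTOR, the other subunits of complex 1 were Mlst8 at −0.21 (standard error 0.17), Akt1s1 at 0.17 and Deptor at −1.34 (standard error 0.60, edgeR adjusted p = 0.75). Deptor, an inhibitor of mTOR, ranged from 13.4 to 45.01 TMM-scaled CPM at 30 °C with its highest value in 30 °C replicate 2, and had 13.9 and 6.59 at 4 °C. Its log2FC was −0.70 without 30 °C replicate 2 and −1.97 without 4 °C replicate 1. In complex 2, Rictor was at −0.32 (standard error 0.37) and Prr5 at 0.53 (standard error 0.25). Tsc1 and Tsc2, the brake on mTOR complex 1, were at −0.33 and −0.16, its activator Rheb at 0.07 and the stress-induced inhibitor Ddit4 at 0.48 (standard error 0.50). Without 4 °C replicate 2, Rictor and Tsc1 turned to 0.06 and Ddit4 was at 0.82. Without 4 °C replicate 1, Rictor was at −0.86, Tsc1 at −0.89 and Ddit4 at 0.0095.

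The remaining genes with an unadjusted p under 0.05 belonged to the amino acid input and the output of mTOR complex 1 and to the targets of Akt. Fnip2, a partner of folliculin at the lysosome, had 36.9, 39.5 and 31.7 TMM-scaled CPM at 30 °C and 21.2 and 19.2 at 4 °C, a log2FC of −0.83 (standard error 0.19, edgeR adjusted p = 0.69). Both cold tumours were below all warm ones by a clear gap. Its log2FC stayed between −0.92 and −0.71 over the 15 other settings, with an unadjusted p under 0.05 in 14 of them. Nprl2, a subunit of the complex that silences mTOR complex 1 when amino acids are short, had 10.9, 10.7 and 11.1 at 30 °C and 15.0 and 19.2 at 4 °C (log2FC 0.65, standard error 0.21, edgeR adjusted p = 0.69).

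Tfeb, the transcription factor of lysosome genes that mTOR complex 1 holds in the cytoplasm, had 34.8, 42.9 and 50.3 TMM-scaled CPM at 30 °C and 69.1 and 70.7 at 4 °C. Its log2FC was 0.71 (standard error 0.20, edgeR adjusted p = 0.69), and the unadjusted p stayed under 0.05 in all 15 other settings. Ulk1, the kinase that starts autophagy, had 58.0, 64.2 and 47.9 at 30 °C and 40.6 and 33.2 at 4 °C (log2FC −0.62, standard error 0.21, adjusted p = 0.69). Foxo3, a transcription factor that Akt keeps out of the nucleus, had 159, 144 and 124 at 30 °C and 104 and 84.4 at 4 °C (log2FC −0.60, standard error 0.19, adjusted p = 0.69). Nprl2, Ulk1 and Foxo3 each had an unadjusted p under 0.05 in 11 of the 15 other settings, and Igfbp3 in 14. All settings reuse these tumours, and the genes were named for an unadjusted p under 0.05 in the main fit. Such counts, here and for Fnip2, are therefore no separate support. Foxo1, a relative of Foxo3, had 51.7, 64.9 and 110 at 30 °C and 116 and 79.4 at 4 °C, with overlapping groups. Gsk3b, a kinase that Akt inhibits, had a log2FC of −0.30 (standard error 0.18). Rps6kb1 and Eif4ebp1, through which mTOR complex 1 raises protein synthesis, had log2FCs of −0.32 (standard error 0.24) and −0.60 (standard error 0.39), and their groups overlapped.

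**Figure D5:**
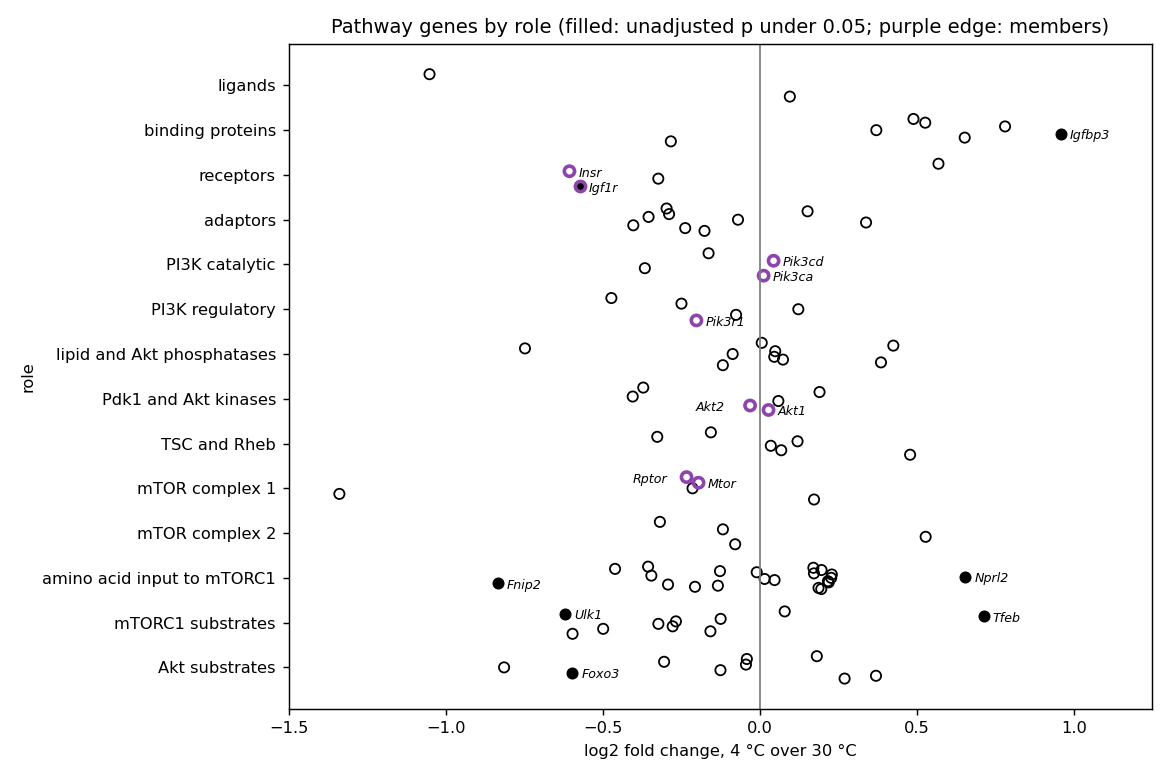
Log2 fold change, 4 °C over 30 °C, of the 101 tested pathway genes by role, filled where the unadjusted edgeR p was under 0.05 and with a purple edge for the 9 genes. The 7 filled points are Igfbp3, Tfeb and Nprl2 on the right and Igf1r, Fnip2, Ulk1 and Foxo3 on the left, and no gene passed after adjustment.

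Profiles close to those of the 9 genes were sought among all tested genes by the root mean square difference of centred log2 levels over the 5 libraries. Closest were Heatr5a (0.032) and Cep164 (0.033) to Insr, Rad51b (0.039) and Nags (0.040) to Igf1r, Coil (0.023) and Rcbtb1 (0.027) to Pik3ca, and Atp6v0a2 (0.020) and Cbll1 (0.022) to Pik3cd. Pik3r1 had Atp5k-ps2 (0.041), a pseudogene whose reads may belong to a near-identical copy, and Hsp90aa1 (0.043). Akt1 had Exosc7 (0.018) and Ube2j2 (0.020), Akt2 had Clec14a (0.017) and Skiv2l (0.019), Mtor had Gxylt1 (0.022) and Trim30d (0.028), and Rptor had Rab3gap2 (0.022) and Usp8 (0.027). None of these genes was in the pathway list.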

How the data were processed

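RNA of 5 tumours was analysed. Per the paper, the authors counted aligned reads per gene by featureCounts (Gencode vM19), whereas the submitters' processing notes name fastp, HISAT and RSEM with build GRCm38, and strand and multi-mapping settings are not given in the sources used here. The deposited values are whole-number counts per gene symbol, without normalization. Entries without a name (333, at most 0.0170% of a library) were left out, and of 97 symbols shared by several entries the one with the highest mean kept the symbol. Genes were filtered with filterByExpr, scaled by TMM and tested in edgeR 4.0.16 (R 4.3.3) with the robust quasi-likelihood F-test, no covariate and Benjamini-Hochberg adjustment over 16133 genes, with calls at 0.05. DESeq2 1.42.0 (the test the study used) and limma 3.58.1 were alternatives, as were other scalings and filters, a replicate block, removal of pancreatic genes and each tumour left out. Standard errors come from the F statistic. Libraries held 16191708 to 20320525 counts. Counting error, taken from the lowest count of each gene, was at most 5.65% for each of the 9 genes. Methods were run on counts simulated from the means and spread of these same libraries, which checks the code and not the results. Coordinates and exon lengths are from GENCODE M21 on GRCm38. Labels do not say that tumours came from separate animals, so p-values measure the spread between these samples. Libraries of 1 group differed far beyond sampling noise, and each was kept as a replicate. Genes named are the 9, pathway genes listed by role, the 2 smallest p in each role, those under 0.05 and the closest profiles. Members and lists were chosen with earlier results of these data known. Some genes of the pathway list are not reported here.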

Additional observations from a re-analysis of the deposited data

How the results depend on the processing

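Across 15 alternatives, 119 of 135 values of the 9 genes kept their sign, 3 genes (Insr, Igf1r, Rptor) in every one, and 0 passed an adjusted p of 0.05. Genes of the 9 at an unadjusted p under 0.05, 1 in the fit reported (Igf1r), numbered 2 with DESeq2 and without a filter (Insr and Igf1r). They numbered 0 with upper-quartile scaling, library totals or the replicate block. With 1 tumour at 30 °C left out the gene changed. It was Insr and not Igf1r without replicate 1 (edgeR, unadjusted p = 0.036 and 0.116). Without replicate 2 there were 0, and without replicate 3 it was Igf1r (edgeR, unadjusted p = 0.031). In the pathway list, DESeq2 called 1 gene, and genes at an unadjusted p under 0.05, 7 as reported, were 11 with DESeq2, 4 with library totals, 11 without a filter and 2 to 13 with a tumour left out (3 without 30 °C replicate 2, 11 without 30 °C replicate 3, 13 without 4 °C replicate 1, 2 without 4 °C replicate 2). Over all genes, calls were 118 with DESeq2, 8 with library totals and 44 with the replicate block, and genes at an unadjusted p under 0.05, 1090 as reported, were 669 with library totals and 520 to 1477 with a tumour left out (520 without 30 °C replicate 2, 540 without 4 °C replicate 2). Library totals shifted the median log2 fold change of all genes to 0.11. Groups that did not overlap numbered 0 of the 9 with library totals (16.4% of all genes) and 2 to 6 with a tumour left out (29% to 58.5% of all genes, the 6 with 58.5% without 4 °C replicate 1), which fewer samples favour by construction.

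Signs turned for Pik3ca with DESeq2 (−0.0029), limma-voom (−0.0052), RLE (−0.0030) and at least 10 counts in every library (−0.0029), for Akt1 with the replicate block (−0.052), and for Akt2 with upper-quartile scaling (0.020) and library totals (0.084). With single tumours left out, log2 fold changes ran from −0.32 to 0.27 for Pik3ca, −0.22 to 0.26 for Pik3cd, −0.545 to 0.061 for Pik3r1, −0.066 to 0.10 for Akt1 and −0.62 to 0.12 for Mtor. Differences in log2 ratio then ran from −0.179 to 0.0559 (Akt2 to Akt1), −0.523 to 0.381 (Insr to Igf1r), −0.0747 to 0.156 (Pik3cd to Pik3ca), −0.353 to −0.101 (Pik3r1 to Pik3ca), −0.160 to 0.0868 (Rptor to Mtor) and −0.116 to 0.301 (Rptor to Rictor). The cause was not tested. Without a tumour at 4 °C, the lone sample is assumed to vary like the others. The replicate numbers were shared by both groups for replicates 1 and 2, but nothing in the labels says that a number marks a shared animal or batch, and they were not used to pair tumours. With 2 tumours at 4 °C their deviations mirror each other, so the correlations of these pairs (−0.254 and 0.26) cannot decide the pairing. With 3 and 2 tumours, differences under about the intervals given could not be detected.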
